A study of Mus musculus with 12 samples.

Results

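Ribosomal protein genes fall into a pair of sets: those whose products build the cytosolic ribosome and those whose products build the mitochondrial ribosome. Members were taken by gene symbol: Rpl or Rps and a number, Rplp0 to Rplp2 and Rpsa for the cytosolic set, and Mrpl or Mrps and a number for the mitochondrial set. Rows marked as pseudogenes in the symbol, the Rps6k kinases and rows with fewer than 60 counts over the 12 libraries were left out. The rule took 167 of 55011 rows, 89 cytosolic and 78 mitochondrial, of 172 rows with a matching name. The 5 rows under 60 counts were Rpl10l and Rps12l1 (0 counts each), Rps23rg1 (5 counts), Rpl3l (6 counts) and Rpl32l (53 counts). The cytosolic rows comprised 47 large subunit genes, 32 small subunit genes, the 3 stalk genes, 6 retrocopies (Rpl37rt, Rpl6l, Rps27rt, Rps3a2, Rps3a3 and Rps4l) and Rps19bp1, which encodes a protein that binds Rps19 and is not itself a ribosomal protein. The mitochondrial rows comprised 49 large and 29 small subunit genes.

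RNA was counted in regulatory T cells (Treg), a CD4 lineage that holds other immune cells in check and depends on the transcription factor Foxp3. The cells came from male C57BL/6 mice aged 21 days and were sorted as live TCRβ+ CD4+ GFP+ CD25+ cells, 1000 per library. There were 3 libraries in each of 4 groups. Spleen WT and lung WT carried Foxp3.ires.GFP. The spleen ∆Foxp3 group is labelled ∆Foxp3.EGFP.iCre X R26.YFP and the lung ∆Foxp3 group ∆Foxp3.ires.GFP, although the extraction protocol names ∆Foxp3.ires.GFP alone. Tissue and allele therefore cannot be told apart in any comparison of the ∆Foxp3 groups, and lung cells were also digested out of the tissue with enzymes and enriched magnetically. By the labels, ∆Foxp3 and WT in spleen also differ in the reporter alleles and in Cre, which cannot be told apart from the change in Foxp3. The labels do not say which part of Foxp3 is altered, nor if replicate libraries stem from different mice. The p-values therefore measure the spread between libraries, which may be technical. Differences below are log2 fold changes of ∆Foxp3 over WT unless stated, fitted by edgeR's quasi-likelihood test over 13295 genes with standard errors (SE) and Benjamini-Hochberg adjusted p. Levels are CPM (counts relative to the library total, scaled by TMM factors). Genes with an adjusted p below 0.05 count as called.

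The cytosolic ribosome translates messengers copied from nuclear genes, and its proteins are needed in near equal amounts because each ribosome holds a single copy of nearly every one. The messengers of most of them start with a run of pyrimidines, the 5′ terminal oligopyrimidine (TOP) tract, through which mTORC1 signalling adjusts their translation. The mitochondrial ribosome is assembled inside the organelle from nuclear-encoded proteins and mitochondrial ribosomal RNA, and it makes only the few respiratory chain subunits encoded by mitochondrial DNA. Treg are known for their reliance on mitochondrial respiration.

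Library totals ran from 3958892 to 9025150 counts. Foxp3 was at 991 to 1096 CPM in spleen WT against 114 to 227 in spleen ∆Foxp3, and at 1328 to 1418 in lung WT against 189 to 469 in lung ∆Foxp3, so its messenger was lower but still counted under the ∆Foxp3 labels. Of 6 T cell and Treg markers, Foxp3 among them, none was at 0 in any group. Their summed level was 5003 to 5442 CPM in spleen WT, 3109 to 3522 in spleen ∆Foxp3, 5060 to 5208 in lung WT and 3145 to 3746 in lung ∆Foxp3. The B cell marker Ms4a1 was at 0 in spleen WT, and the summed level of the 5 B and plasma cell markers (1093 to 1250 CPM in spleen WT, 52.1 to 135 in spleen ∆Foxp3, 1893 to 1943 in lung WT and 111 to 234 in lung ∆Foxp3) was almost entirely Ighm. Summed erythroid markers were at 1974 to 4901 CPM in lung WT and at no more than 403 in the other groups. Spleen WT 1 stood apart for the cytosolic set, as shown next.

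The mitochondrial set was higher in ∆Foxp3 than in WT cells in lung, and with 1 library crossing in spleen, while the cytosolic set overlapped between genotypes. The summed level of the 78 mitochondrial rows was 4585, 3814 and 3744 CPM in spleen WT and 4776, 6020 and 4530 CPM in spleen ∆Foxp3. The lung sums were 3326, 3446 and 3748 CPM in WT and 4232, 4708 and 4638 CPM in ∆Foxp3. The lung groups did not overlap, and the spleen groups overlapped by 1 library, spleen WT 1. The 89 cytosolic rows summed to 81732, 58585 and 57005 CPM in spleen WT and to 56884, 56140 and 65971 CPM in spleen ∆Foxp3. In lung they summed to 55738, 53974 and 56409 CPM in WT and 52099, 57452 and 55283 CPM in ∆Foxp3, so the groups overlapped in both tissues. Spleen WT 1 held the highest cytosolic sum of all 12 libraries, with 8.13% of its counts in that set against 5.20% to 6.80% in the other 11. In bulk RNA of this kind, fewer cells of a type and less RNA per cell cannot be told apart.

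**Figure D1:**
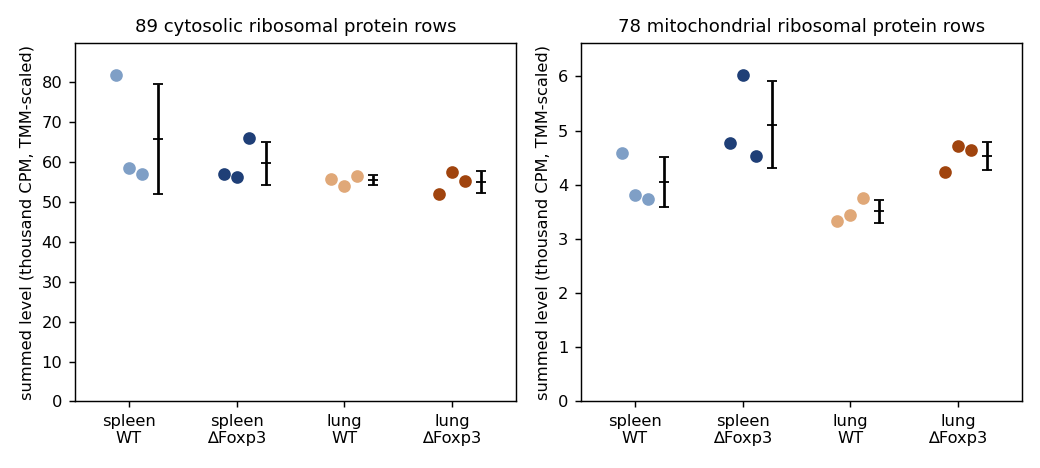
Summed level of the 89 cytosolic (left) and 78 mitochondrial (right) ribosomal protein rows, in TMM-scaled CPM divided by 1000, with 1 point per library and the mean and SD of 3 libraries beside each group. The mitochondrial sums of lung ∆Foxp3 lie above those of lung WT, while the cytosolic sums overlap and spleen WT 1 is the highest point, at 81732 CPM.

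A ratio within a library does not depend on how libraries are scaled to each other. The cytosolic sum was 17.8, 15.4 and 15.2 times the mitochondrial sum in the spleen WT libraries and 11.9, 9.33 and 14.6 times it in spleen ∆Foxp3. The means were 16.1 ± 1.46 (SD, n = 3) in WT and 11.9 ± 2.62 (SD, n = 3) in ∆Foxp3. In lung the ratio was 16.8, 15.7 and 15.0 in WT and 12.3, 12.2 and 11.9 in ∆Foxp3. Every ∆Foxp3 library was below every WT library of its tissue, and this held with and without spleen WT 1. The ratio shows unequal levels of the sets, not which of them moved.

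A further ratio separated the genotypes within the cytosolic ribosome. Counts of the 32 small subunit genes over those of the 47 large subunit genes came to 1.02, 1.00 and 0.989 in spleen WT and 0.961, 0.953 and 0.977 in spleen ∆Foxp3. In lung they came to 1.00, 1.01 and 1.02 in WT and 0.942, 0.945 and 0.928 in ∆Foxp3. The mean fell from 1.01 ± 0.0113 to 0.939 ± 0.00888 in lung (SD, n = 3 each), and the groups did not overlap in either tissue. The matching ratio of the mitochondrial subunits was 0.523 to 0.531 in spleen WT against 0.478 to 0.524 in spleen ∆Foxp3, where the ranges overlap, and 0.517 to 0.529 in lung WT against 0.495 to 0.512 in lung ∆Foxp3, where they do not overlap. These ratios were formed after values were seen and carry no test.

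**Figure D2:**
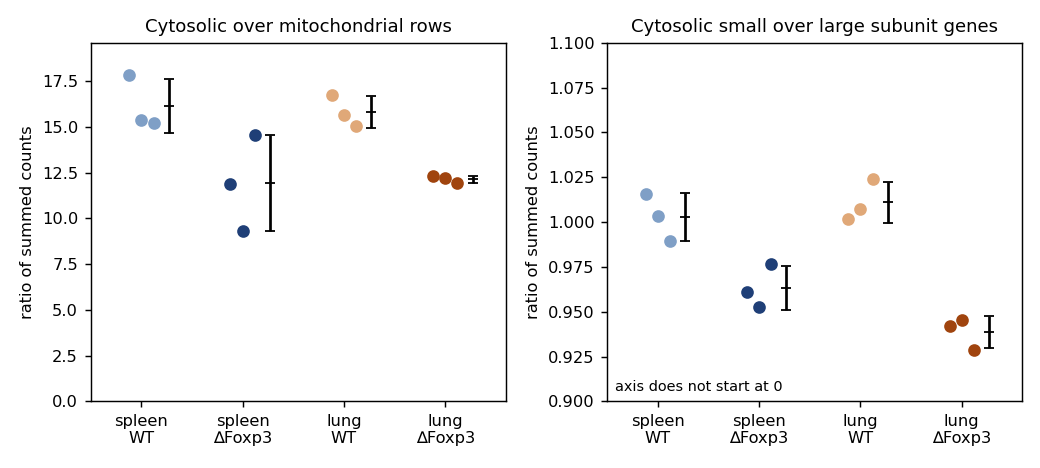
Left, the summed counts of cytosolic over mitochondrial rows; right, the summed counts of cytosolic small subunit over large subunit genes (axis from 0.90). Points are libraries and bars the mean and SD of 3; in both panels the ∆Foxp3 libraries lie below the WT libraries of the same tissue.

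Mitochondrial ribosomal protein genes were higher in ∆Foxp3 than in WT cells wherever they were called. In spleen 14 of 78 passed the test as higher and 0 as lower, and in lung 15 of 78 passed as higher and 0 as lower, all by edgeR's quasi-likelihood test. In spleen, where 14.1% of all tested genes were called higher and 12.5% lower, the members' share called higher was 17.9%, close to the background. In lung, where 9.74% were called higher and 10.5% lower, it was 19.2%. Of the members, 25 in spleen and 29 in lung had an unadjusted p under 0.05 in either direction, as had 38% and 34% of all tested genes. The median difference over the 78 was 0.30 in spleen and 0.36 in lung, against -0.02 and -0.01 over all tested genes. The estimate was above 0 for 65 members in spleen, 70 in lung and 61 in both, whereas 48.8% of all tested genes were above 0 in spleen. Without overlap between the groups of 3 were 27 members in spleen (38.2% of all tested genes) and 43 in lung (45.3% of all tested genes). By subunit, 10 of 49 large (20.4%) and 4 of 29 small subunit genes (13.8%) were called higher in spleen, and 11 (22.4%) and 4 (13.8%) in lung. The small subunit share in spleen was at the background of 14.1%. The 8 members called in both tissues, 57.1% of the spleen calls and 53.3% of the lung calls, were Mrpl19, Mrpl20, Mrpl33, Mrpl36, Mrpl45, Mrpl57, Mrps28 and Mrps7.

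Among large subunit genes, Mrpl45 on chr11:97315716-97329920 (mm10, plus strand) encodes a protein at the exit of the peptide tunnel that helps to hold the ribosome at the inner membrane. It was at 56.8, 46.8 and 54.0 CPM in spleen WT and 111, 112 and 83.9 CPM in spleen ∆Foxp3. Lung WT held 53.4, 34.5 and 53.6 CPM and lung ∆Foxp3 109, 93.2 and 129 CPM. All 6 ∆Foxp3 libraries were above all 6 WT libraries. The difference was 0.96 ± 0.20 (SE) in spleen, 1.94-fold, with an adjusted p of 0.00270, and 1.22 ± 0.20 in lung, 2.33-fold, with an adjusted p of 0.000881 (edgeR).

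Mrpl33 on chr5:31596935-31664384 (plus strand) encodes a small protein of the large subunit. It was at 68.2, 62.0 and 56.6 CPM in spleen WT and 99.2, 132 and 122 CPM in spleen ∆Foxp3, the smallest adjusted p of the set in spleen (0.92 ± 0.16, edgeR adjusted p = 0.000805). Lung libraries gave 63.3, 80.6 and 81.0 CPM (WT) and 104, 113 and 121 CPM (∆Foxp3), a difference of 0.59 ± 0.16. The groups did not overlap in either tissue, and the lung call was lost without lung WT 1 or without lung ∆Foxp3 3.

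Mrpl12 on chr11:120484613-120489065 (plus strand) encodes the mitochondrial counterpart of the bacterial L7/L12 stalk protein, and its product is also known to bind the mitochondrial RNA polymerase. It was at 37.0, 36.8 and 39.2 CPM in lung WT and 61.4, 82.5 and 92.7 CPM in lung ∆Foxp3, a difference of 1.06 ± 0.26 (edgeR adjusted p = 0.00926). In spleen the levels of 78.2, 46.8 and 46.3 CPM in WT and 65.1, 118 and 82.1 CPM in ∆Foxp3 overlapped, and the difference of 0.63 ± 0.25 was not called. Without spleen WT 1 it was 0.96 and called (edgeR adjusted p = 0.00979). Its interaction term, the lung difference minus the spleen difference, was 0.44 ± 0.36 and not called.

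Other large subunit genes called in spleen were Mrpl35, Mrpl18, Mrpl42, Mrpl57, Mrpl20, Mrpl50, Mrpl36 and Mrpl19, with differences from 0.58 to 0.88. Mrpl57, whose product belongs to the mitochondria-specific part of the large subunit, was at 50.9, 43.9 and 52.8 CPM in spleen WT and 82.2, 102 and 77.1 CPM in spleen ∆Foxp3. In lung, Mrpl51, Mrpl17, Mrpl20, Mrpl11, Mrpl57, Mrpl36, Mrpl28 and Mrpl19 were called as well, with differences from 0.64 to 1.04. Mrpl20, the counterpart of a bacterial protein needed early in large subunit assembly, was at 56.6, 57.0 and 59.8 CPM in lung WT and 93.9, 113 and 116 CPM in lung ∆Foxp3. For each of these genes the groups of the tissue in which it was called did not overlap. The calls were lost under 12 of 24 alternative settings for Mrpl11 in lung and Mrpl19 in spleen, under 10 for Mrpl28 in lung and under 9 for Mrpl50 in spleen.

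Among small subunit genes, Mrps22 on chr9:98588730-98601660 (minus strand), which encodes a mitochondria-specific protein of that subunit, had the set's largest difference in spleen. It was at 6.79, 26.1 and 19.9 CPM in spleen WT and 39.8, 62.1 and 29.8 CPM in spleen ∆Foxp3, a difference of 1.33 ± 0.41 (edgeR adjusted p = 0.0266). The groups did not overlap, but the libraries within each differed widely, and the call was lost without spleen WT 3 or without spleen ∆Foxp3 2. Mrps7, the counterpart of the bacterial protein that starts assembly of the small subunit head, was at 33.1, 48.2 and 36.0 CPM in spleen WT and 55.5, 117 and 57.0 CPM in spleen ∆Foxp3. Lung libraries gave 44.6, 49.0 and 38.5 CPM (WT) and 73.6, 91.2 and 70.8 CPM (∆Foxp3), and it was called in both tissues with differences of 0.97 and 0.84. Mrps28 was called in both tissues too, at 0.94 and 0.95, while Mrps12, a protein of the decoding centre, was called in spleen alone (0.70), and Mrps10 and Mrps18b in lung alone (0.77 each). The lung calls of Mrps18b and Mrps28 were lost under 11 and 8 of 24 alternative settings. No member's interaction term was called, so these lists are not shown to differ between tissues.

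**Figure D3:**
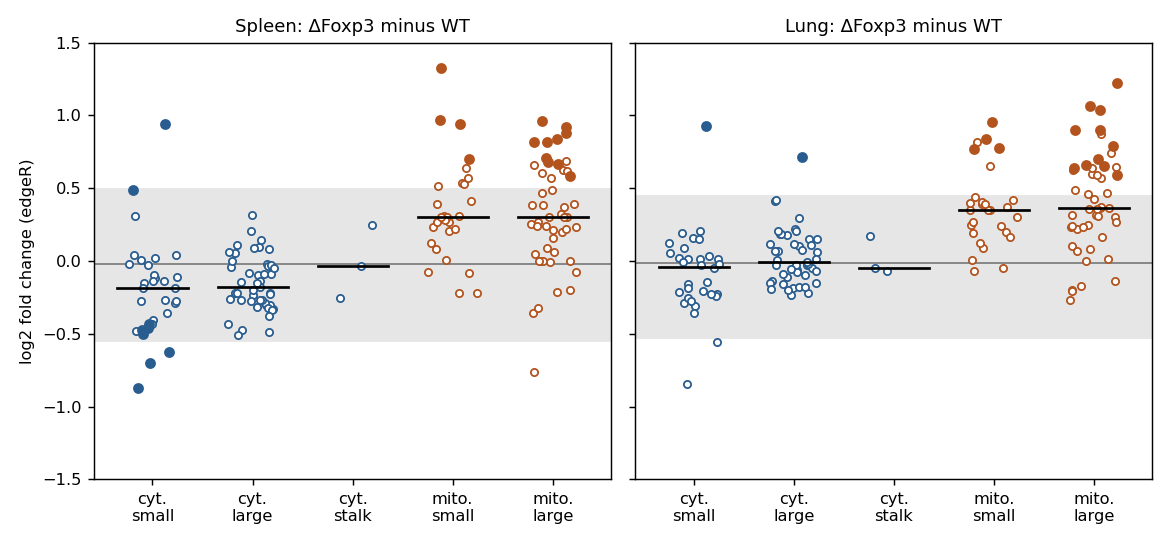
Log2 fold change of ∆Foxp3 over WT for each tested subunit gene, without retrocopies and Rps19bp1, in spleen (left) and lung (right); filled points passed the test, black bars are medians, and the grey band and line are the quartiles and median of all 13295 tested genes. Mitochondrial members centre at 0.30 and 0.36, above the all-gene median, and Rpl39l, at 3.05 in spleen and 1.77 in lung and not called, lies off the axis.

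Markers of dividing cells moved the same way as the mitochondrial set. The summed level of Mki67, Top2a and Ccnb1 was 54.1 to 149 CPM in spleen WT against 597 to 1284 in spleen ∆Foxp3, and 394 to 626 in lung WT against 822 to 1139 in lung ∆Foxp3, and none of the 3 was at 0. Ighm and the summed level of the T cell markers, given above, were lower in ∆Foxp3. That sum includes the targeted gene Foxp3, whose mean was 1038 CPM in WT against 166 in ∆Foxp3 in spleen, and 1369 against 347 in lung. Of the other markers, Cd4 was called higher (0.38 in spleen and 0.37 in lung), and Trbc1 and Trbc2 were called lower in both tissues. Il2ra and Cd3e were called lower in spleen and not called in lung. Also lower was the summed level of 4 endothelial markers: 269 to 328 CPM in spleen WT against 89.4 to 144 in spleen ∆Foxp3, and 282 to 329 in lung WT against 112 to 119 in lung ∆Foxp3, with Cldn5 at 0 in both spleen groups. The part of any of these in the result was not tested. The counts depend on single libraries: leaving 1 out in turn left 5 to 20 mitochondrial members called in spleen (5 without spleen ∆Foxp3 2) and 5 to 25 in lung (5 without lung WT 1 or lung WT 2), all of them higher. Leaving out a library can change the calls of all genes, and the share called in each refit is not given here. These counts therefore do not show if the members shifted apart from other genes.

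The cytosolic set gave a mixed picture in spleen and almost no calls in lung. Of 88 tested members (Rpl6l did not pass the filter on low counts), 7 were called lower and 2 higher in spleen by edgeR's quasi-likelihood test. That is 10.2% of them, where 26.6% of all tested genes were called. In lung, where 20.2% of all tested genes were called, 2 were called higher and 0 lower, and 6 had an unadjusted p under 0.05. The median difference was -0.18 in spleen, with 20 of 88 above 0, and -0.02 in lung, with 40 of 88 above 0. Groups did not overlap for 16 of 88 members in spleen (38.2% of all tested genes) and 32 of 88 in lung (45.3% of all tested genes). All 9 spleen calls were small subunit genes, and none of the 47 large subunit or 3 stalk genes was called there. The small and large subunit medians were both -0.18 in spleen.

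Spleen WT 1 decides the sign of this median. Without it the spleen median was 0.06 with 51 of 88 members above 0, and 5 members were called higher and 2 lower. The members still called lower without it were Rps27 and Rps24, at -0.59 and -0.45. The mitochondrial median in spleen was 0.48 without it, with 20 members called higher. The share of all tested genes called in this refit is not given here.

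Rps27 on chr3:90212522-90213651 (minus strand) encodes a zinc-binding protein of the small subunit. It was at 1677, 1124 and 1044 CPM in spleen WT and 718, 530.5 and 852 CPM in spleen ∆Foxp3. The lung levels were 985, 840.1 and 858 CPM for WT and 638, 630.2 and 557 CPM for ∆Foxp3. The ∆Foxp3 libraries were below the WT libraries in each tissue, by -0.87 ± 0.19 in spleen (1.83-fold lower, edgeR adjusted p = 0.00376) and by -0.56 ± 0.19 in lung, which missed the threshold (edgeR adjusted p = 0.0523) but passed it under 9 of 24 alternative settings, whose adjusted p ran from 0.00249 to 0.217.

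Rps24 on chr14:24487125-24496959 (plus strand), a small subunit gene mutated in some patients with Diamond-Blackfan anaemia, was at 1166, 802 and 772 CPM in spleen WT and 544, 506 and 635 CPM in spleen ∆Foxp3. Its lung values were 706, 634 and 696 CPM (WT) and 526, 542 and 519 CPM (∆Foxp3). The groups did not overlap in either tissue, and the difference was -0.70 ± 0.16 in spleen (edgeR adjusted p = 0.00414) and -0.36 ± 0.16 in lung, not called. Rps15a fell in spleen by -0.63 ± 0.18, from 1642, 1014 and 978 CPM to 788, 679 and 887 CPM. Rps14, known for its loss in the 5q- syndrome, Rps28, Rps16 and Rps15 were called lower in spleen with differences from -0.50 to -0.43. Their calls were lost under 12 to 14 of 24 alternative settings, and none of these 4 was called in lung.

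Rpsa on chr9:120127689-120132369 (plus strand) encodes a small subunit protein also known as the laminin receptor. It was at 1378, 1126 and 1144 CPM in spleen WT and 1586, 1579.5 and 1959 CPM in spleen ∆Foxp3, higher by 0.49 ± 0.13 (edgeR adjusted p = 0.0130) with no overlap. In lung the groups overlapped, and the difference of 0.21 ± 0.13 was not called. The spleen call was lost without spleen WT 2 and with only the groups compared in the fit (edgeR adjusted p = 0.0632).

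Rps27l on chr9:66946086-66949516 (plus strand), a paralog of Rps27 known as a target of p53, was called higher in both tissues, while Rps27 was called lower in spleen. Rps27l was at 93.8, 61.6 and 55.5 CPM in spleen WT and 119, 184 and 104 CPM in spleen ∆Foxp3. Lung WT held 42.9, 45.3 and 58.5 CPM and lung ∆Foxp3 74.8, 106 and 98.3 CPM. The groups did not overlap, with differences of 0.94 ± 0.25 in spleen (edgeR adjusted p = 0.0110) and 0.93 ± 0.25 in lung (edgeR adjusted p = 0.0180). The spleen call was lost without spleen ∆Foxp3 2. The lung call was lost without lung WT 1, lung WT 2, lung ∆Foxp3 2 or lung ∆Foxp3 3.

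The level of Rps27 was 17.9, 18.2 and 18.8 times that of Rps27l in spleen WT and 6.03, 2.88 and 8.22 times in spleen ∆Foxp3. The lung values were 23.0, 18.5 and 14.7 times in WT and 8.54, 5.94 and 5.66 times in ∆Foxp3. These ratios of CPM, not adjusted for length, did not overlap between genotypes in either tissue and were formed after the levels had been seen. The genes share 0 of the 38-base windows of their transcripts, so that reads of that length that match without error cannot be moved from one to the other.

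**Figure D4:**
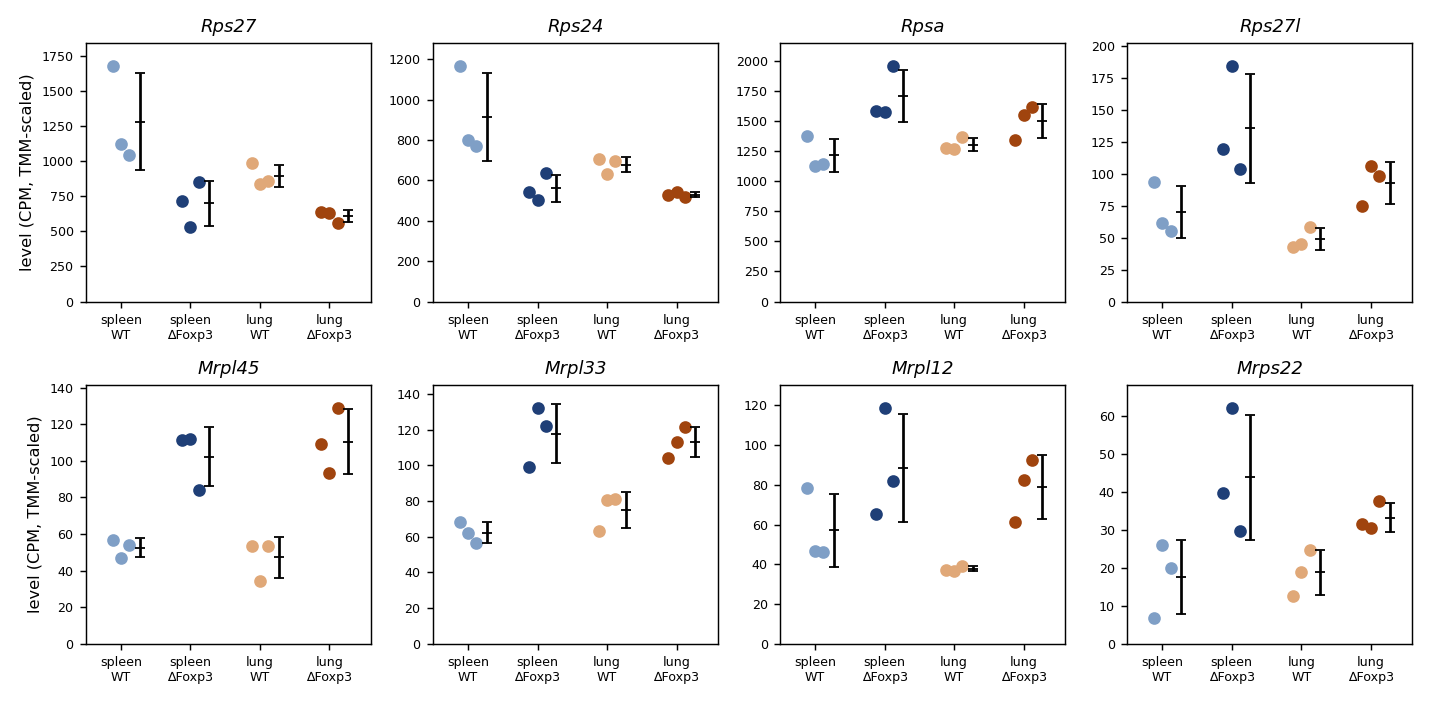
Level in TMM-scaled CPM of 4 cytosolic (top) and 4 mitochondrial (bottom) members in each library, with the mean and SD of 3 libraries beside each group. Rps27 and Rps24 are lower and Rps27l, Mrpl45 and Mrpl33 higher in every ∆Foxp3 library than in every WT library of the same tissue.

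Other paralog pairs of the cytosolic ribosome showed less. Rpl7l1, a paralog of Rpl7 found in ribosome precursors, was at 68.9, 69.5 and 87.0 CPM in lung WT and 118, 116 and 136 CPM in lung ∆Foxp3. Its difference of 0.71 ± 0.22 was called (edgeR adjusted p = 0.0326), the call being lost without lung WT 1, lung WT 2, lung ∆Foxp3 2 or lung ∆Foxp3 3. Rpl7 itself differed by 0.01 ± 0.13 there. The level of Rpl7 was 13.6 to 16.8 times that of Rpl7l1 in lung WT and 8.82 to 10.3 times in lung ∆Foxp3, without overlap. In spleen it was 9.64 to 15.7 times in WT and 6.63 to 13.3 times in ∆Foxp3, which overlap. Rpl22 was 2.44 to 2.62 times Rpl22l1 in spleen WT and 2.19 to 3.02 times in spleen ∆Foxp3, and in lung 2.31 to 2.90 and 2.03 to 2.76 times, overlapping in both tissues. Rpl36a over Rpl36al, at 3.75 to 4.18 and 2.88 to 4.10 in spleen, overlapped too, as did the lung values of 3.79 to 4.82 and 3.40 to 3.91. Rps4x over Rps4l ranged from 49.6 to 250 over the 12 libraries. Rpl39l was at most at 6.56 CPM in any library, with estimates of 3.05 ± 1.12 in spleen and 1.77 ± 1.05 in lung, neither called. Rpl3 differed by -0.00 in spleen and 0.30 in lung, not called, and Rpl10 had no counted paralog. The mitochondrial genes Mrps18a, Mrps18b and Mrps18c differed by 0.31, 0.54 and 0.39 in spleen and by 0.24, 0.77 and 0.25 in lung, where Mrps18b alone was called. Rps19bp1 was at 7.24 to 21.4 CPM and not called.

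**Figure D5:**
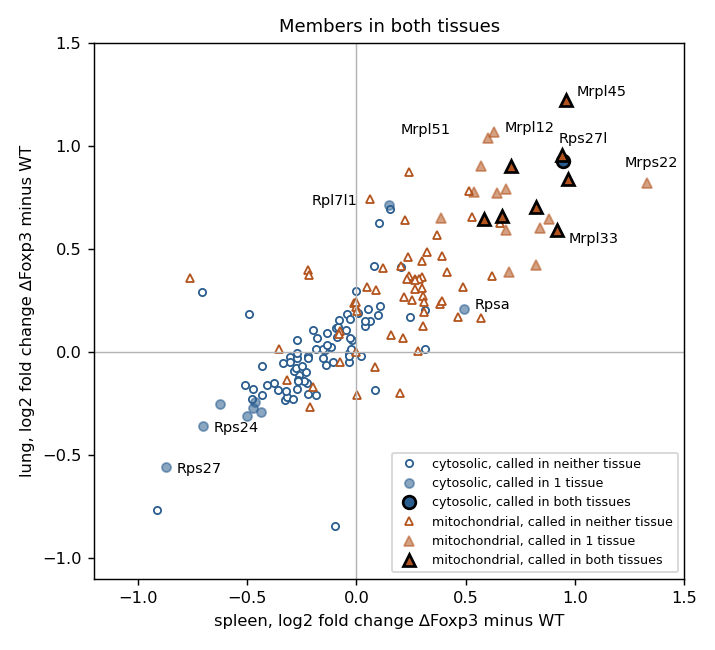
Log2 fold change of ∆Foxp3 over WT in spleen (x) and lung (y) for each tested member, circles cytosolic and triangles mitochondrial, filled where called in 1 tissue and outlined in black where called in both. Mitochondrial members gather in the upper right, with 61 of 78 above 0 on both axes, and Rps27 and Rps24 lie at the lower left; Rpl39l is off the axes.

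No member of either set was called between the tissues. In WT, lung minus spleen had a median of -0.32 over the 88 cytosolic members, 82 of them below 0, and of -0.22 over the 78 mitochondrial members. Of these, 31 and 15 had an unadjusted p under 0.05 (19.1% of all tested genes), and 0 passed edgeR's adjusted threshold, where 4.13% of all tested genes did. Groups did not overlap for 48 cytosolic and 22 mitochondrial members, all lower in lung (25.6% of all tested genes, in either direction). Without spleen WT 1 the medians were -0.08 and -0.10. DESeq2 called 3 cytosolic members and 1 mitochondrial member in this comparison. The share of all tested genes that DESeq2 called is not given here, and the 4.13% is edgeR's. In ∆Foxp3, lung minus spleen had medians of -0.14 and -0.19, with 0 members called by edgeR, 1 cytosolic and 5 mitochondrial members at an unadjusted p under 0.05 (9.18% of all tested genes), and 0.722% of all tested genes called.

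The interaction term asks whether the genotype difference in lung departs from that in spleen. By edgeR 0 members were called, 0 had an unadjusted p under 0.05 (9.26% of all tested genes), and 0.925% of all tested genes were called. The median was 0.17 over the cytosolic members, 77 of 88 above 0, but -0.03 without spleen WT 1. Over the mitochondrial members it was 0.06, and -0.06 without spleen WT 1. The smallest adjusted p were 0.630 for Rpl7l1 (0.57 ± 0.31) and 0.717 for Mrpl47 (0.68 ± 0.42). The next cytosolic members were Rpl35a (0.36), Rps3a1 (0.33) and Rpl5 (0.28), and the next mitochondrial ones Mrpl42 (-0.40), Mrps33 (0.62) and Mrpl55 (0.63). The groups differ here in allele as well as tissue.

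Levels between genes can be compared only per length. Per kilobase of the annotated principal transcript, the median level was 564 CPM over the cytosolic rows and 33.1 CPM over the mitochondrial rows. Among the highest cytosolic members by this level were Rps27 (2525) and Rplp1 (2473), the last a protein of the stalk that recruits translation factors. The highest mitochondrial ones were Mrpl33 (192), Mrpl52 (156), Mrpl42 (133) and Mrpl20 (123). The lowest were Rps3a2 (1.96) and Rpl6l (1.04), both retrocopies, and Mrpl47 (5.83) and Mrpl53 (2.01). The stalk genes Rplp0, Rplp1 and Rplp2 differed by 0.24, -0.03 and -0.25 in spleen and were not called.

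Ribosomal protein genes have many processed copies, and reads of 38 bases cannot always be placed. Over the annotated principal transcripts, the median cytosolic row shared 53.8% of its 38-base windows with a transcript of another gene, and the median mitochondrial row 5.42%. Rps27 shared 98.7% of them, mostly with the retrocopy Rps27rt (304 windows), which was counted at 2.97 to 15.1 CPM and had estimates of -0.91 in spleen and -0.77 in lung, not called. Rps24 shared 23.3%, Rps15a 7.53%, Rps27l 27.1% and Mrpl45 8.44%. The sources used here do not say how reads with several matches were counted, and levels of members with many shared windows are therefore uncertain. Of the 58 mitochondrial members that shared under 20%, 11 were called higher and 0 lower in each tissue. Of all tested genes, 14.1% were called higher and 12.5% lower in spleen, and 9.74% and 10.5% in lung. The spleen count is thus close to the background. Of the 9 such cytosolic rows, Rps15a was called lower in spleen and Rpl7l1 higher in lung. The share falls with the length of the annotated transcript, which for Rps15a was 5179 bases against a cytosolic median of 860. Rps15a had 387 shared windows, so its low share does not show that its reads were well placed. Mrpl53, with 100% shared, was at 0.518 to 3.12 CPM and lies over exons of another gene, and Mrps18b shared 64.1%.

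Start regions were read for pyrimidine runs and promoter motifs. RefSeq start regions (GRCm38.p6, the mm10 assembly) were matched for 62 of the 82 cytosolic genes other than retrocopies and the binding partner, and for 69 of 78 mitochondrial genes. The stretches below run 5′ to 3′ on the gene's strand, from 60 bases before to 20 bases from the RefSeq start. Capitals mark runs of 8 or more pyrimidines (C or T only) from 40 bases before the start onward, and the core CCGGAAG bound by ETS factors, in either direction. They are shown for the paralogs that moved apart and for mitochondrial genes called in both tissues, all with a RefSeq start within 12 bases of the annotated one.
Rps27, chr3:90213629-90213708, minus strand: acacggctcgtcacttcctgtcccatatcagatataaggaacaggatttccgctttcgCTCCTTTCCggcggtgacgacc
Rps27l, chr9:66946026-66946105, plus strand: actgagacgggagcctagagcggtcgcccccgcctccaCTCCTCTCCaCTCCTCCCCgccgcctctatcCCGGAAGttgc
Mrpl45, chr11:97315656-97315735, plus strand: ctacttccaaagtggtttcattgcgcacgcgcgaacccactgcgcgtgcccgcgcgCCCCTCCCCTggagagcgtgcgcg
Mrpl33, chr5:31613891-31613970, plus strand: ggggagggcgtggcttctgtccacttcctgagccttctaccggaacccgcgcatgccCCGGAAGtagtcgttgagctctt
Mrpl57, chr14:57826179-57826258, plus strand: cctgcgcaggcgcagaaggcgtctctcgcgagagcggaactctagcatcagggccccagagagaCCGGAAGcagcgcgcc

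Rps27 has a 9-base pyrimidine run across its start, of the kind that opens TOP messengers, and no ETS core. Rps27l has the core, and its 9-base runs end before the RefSeq start and do not cross it. Of the mitochondrial genes, Mrpl45 has a run across its start while Mrpl33 and Mrpl57 have the core. A run of 8 or more pyrimidines from 40 bases before to 30 after the start was present in 59.7% of the matched cytosolic members, 29.0% of the mitochondrial members and 26.8% of all 32851 RefSeq start regions. The ETS core, searched on both strands from 100 bases before to 50 after the start, was present in 30.6%, 31.9% and 6.59%. Searched the same way, a motif of the factor YY1 was present in 14.5%, 17.4% and 2.78%. A motif of the factor NRF1 was present in 3.23%, 2.90% and 0.728%. A match is a description of letters and not a bound site. Cytosolic members with and without a run had alike median differences, -0.18 and -0.19 in spleen and -0.01 and -0.05 in lung. Mitochondrial members with and without the core had medians of 0.29 and 0.28 in spleen and 0.36 and 0.41 in lung.

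Genes that build ribosomes without being part of them were mostly estimated higher in ∆Foxp3 cells, 35 of 43 in spleen and 40 in lung. Of 43 ribosome biogenesis genes, 9 were called higher and 1 lower in spleen, with a median of 0.22, and 17 higher and 0 lower in lung, with a median of 0.62, beside medians of -0.02 and -0.01 over all tested genes, of which 14.1% and 9.74% were called higher. Ddx21, a nucleolar helicase of ribosomal RNA synthesis and processing, was at 62.1, 93.1 and 116 CPM in spleen WT and 166, 258 and 199.7 CPM in spleen ∆Foxp3. It was at 105, 119.7 and 115 CPM in lung WT and 209, 204 and 216 CPM in lung ∆Foxp3. Ncl, the nucleolar protein nucleolin, differed by 0.64 ± 0.18 in spleen and 0.98 ± 0.19 in lung. Wdr12, Rrp12 and Ltv1, which act in subunit assembly, were called in both tissues with differences from 0.82 to 1.26. The gene called lower in spleen was Myc (-0.75 ± 0.22), which drives ribosome production. In lung Myc was at 0.59 ± 0.22, not called, with an edgeR adjusted p of 0.0689 for the interaction.

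Of 21 other genes of cytosolic translation or with TOP messengers, 3 were called higher in spleen and 2 in lung, with 0 lower, which is at the background of 14.1% and 9.74% called higher. Eef2, the elongation factor that moves the ribosome along, was at 4507, 4548 and 4964 CPM in spleen WT and 6348, 6196 and 7223 CPM in spleen ∆Foxp3 (0.50 ± 0.10). Hnrnpa1 and Eif5a were called in both tissues. The calls were lost under 10 of 24 alternative settings for Hnrnpa1 in lung and under 6 for Eif5a in spleen. Of 16 mTORC1 and TOP regulators, 2 were called higher and 2 lower in spleen, and 0 higher and 4 lower in lung. Of all tested genes 14.1% were called higher and 12.5% lower in spleen, and 9.74% and 10.5% in lung. The spleen counts of the regulators are thus near the background. Sesn1, which restrains mTORC1 when amino acids are short, was at 435 to 474 CPM in spleen WT against 24.5 to 54.0 in spleen ∆Foxp3, and at 355 to 412 in lung WT against 17.2 to 26.3 in lung ∆Foxp3, 12.1-fold and 17.4-fold lower. Eif4ebp1, an mTORC1 target that blocks cap-dependent initiation, was called higher in spleen (1.44 ± 0.23). Deptor was the other called higher in spleen, at 2.64 to 8.90 CPM against no more than 0.357 in WT. Sesn3 was called lower in spleen, and Sesn2, Eif4ebp2 and Tsc1 lower in lung. The call of Tsc1 was lost under 12 of 24 alternative settings.

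The mitochondrial translation genes outside the set did not move together. As background to the counts that follow, 14.1% of all tested genes were called higher and 12.5% lower in spleen. In lung these shares were 9.74% and 10.5%. A list of mitochondrial ribosome members under other names held 6 tested genes, among them Oxa1l, whose product is not itself a ribosomal protein. Of these 6, Dap3, which encodes a small subunit protein, was called lower in spleen (-0.49 ± 0.15). It was at 124, 123 and 106 CPM in spleen WT and 91.4, 88.5 and 72.0 CPM in spleen ∆Foxp3. None of the 6 was called in lung, where 2 had an unadjusted p under 0.05. Of 28 assembly and mitochondrial translation factors, 3 were called higher and 1 lower in each tissue. Ddx28, a helicase of large subunit assembly, was at 17.9, 17.2 and 22.8 CPM in spleen WT and 57.5, 53.7 and 76.2 CPM in spleen ∆Foxp3. It was at 15.3, 15.3 and 19.9 CPM in lung WT and 49.4, 50.9 and 56.5 CPM in lung ∆Foxp3. The differences of 1.70 ± 0.21 and 1.63 ± 0.22 exceeded those of every member of the mitochondrial set. The elongation factor Gfm1 was called higher in both tissues too. Ngrn, needed for mitochondrial ribosomal RNA stability, was called lower in spleen, and Gfm2, a ribosome recycling factor, lower in lung. Those calls were lost under 6 of 24 alternative settings for Ngrn and 12 for Gfm2. Of the 11 tested messengers encoded by mitochondrial DNA, the templates that this ribosome translates, 1 was called in each tissue, mt-Nd3 in spleen and mt-Nd1 in lung, both higher. Lung ∆Foxp3 3 held 2.44% of its counts in mitochondrially encoded genes, against 1.40% to 1.63% in the other 11 libraries. The lung difference of mt-Nd1 was 0.68, and 0.47 and not called without that library.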

How the data were processed

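The deposited values are counts, not normalized, for 55011 gene symbols in each of 12 libraries. Per the labels' protocols, oligo(dT)-primed cDNA was amplified for 18 cycles and read as pairs of 38 bases, without molecular identifiers. The build mm10, Subread 2.0.0 with featureCounts, and STAR 2.7.3a are named per the submitters' processing notes. The sources used here do not give the annotation, nor the strand and multiple-match settings.

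Counts were fitted with edgeR 4.0.16 (R 4.3.3): TMM factors, the low-count filter by group, robust quasi-likelihood dispersion and 1 fit of all 12 libraries with the group as the only term. The 5 contrasts were ∆Foxp3 minus WT in each tissue, lung minus spleen in each genotype, and their interaction. All p-values are two-sided and adjusted by Benjamini-Hochberg over 13295 genes; the fit was tested on simulated counts. Alternatives used DESeq2 1.42.0, limma 3.58.1 and other scalings, filters and left-out libraries. Coordinates came from GENCODE, matched for 96.4% of symbols.

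The members, the lists of pathway and marker genes and the comparisons were chosen with earlier results of these data known. Named members were, per contrast and set, those called with the largest changes (up to 5 in each direction) that had a mean of 10 CPM or more and no overlap, the 4 smallest interaction p, the 4 highest and 2 lowest per length, paralogs, Rps19bp1, and up to 4 called genes per list. Other called members are named with the count they belong to, and some items the rule names are not reported here. Replicate libraries were not duplicates: 0 pairs held identical values.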

Additional observations from a re-analysis of the deposited data

How the results depend on the processing

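Of the recomputed counts of called members, 189 stayed within 1.5 times the reported count and 49 did not. The 189 include counts of 0 that stayed 0. With 1 library left out, this was so throughout for the interaction and for lung minus spleen in ∆Foxp3. The 189 therefore do not measure how stable the genotype counts are, whose ranges are given below. Single estimates were followed for called members and named genes only. Among these, no called difference changed sign under the 24 alternatives. Estimates that were not called crossed 0 for 5 of the followed cytosolic genes in spleen: Rpl22 (-0.36 to 0.03), Rpl22l1 (-0.33 to 0.10), Rpl36al (-0.07 to 0.42), Rpl7l1 (-0.20 to 0.35) and Rps4x (-0.23 to 0.09). In lung the estimates of Rpl22l1 (-0.00 to 0.27) and Oxa1l (-0.15 to 0.06) did so too. Over the whole cytosolic set more spleen estimates than these crossed 0. The set's spleen median ran from -0.29 to 0.06 when 1 library was left out. Rps27, Rps24, Mrpl45, Mrpl33, Mrpl42, Mrpl57 and Mrpl18 in spleen and Mrpl45, Mrpl12 and Mrpl20 in lung kept their calls throughout. The cause of the shifts below was not tested, except that fits of fewer groups rest on fewer libraries. The share of all tested genes called under each setting is not given beside these counts.

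In spleen the 9 called cytosolic members became 14 with upper-quartile factors, with library totals and with limma voom, 5 with TMM factors computed without ribosomal protein and mitochondrially encoded rows, and 3 with only the groups compared in the fit; leaving out 1 library gave 3 to 15. The 14 mitochondrial members became 6 with only the groups compared, and 5 to 20 without 1 library. In lung the 2 cytosolic members became 8 with only the groups compared, 10 with voom and 1 without spleen WT 1, lung WT 1 and lung ∆Foxp3 3 together, and 0 to 5 without 1 library. The 15 mitochondrial members became 25, 33 and 3 under the same settings, and 5 to 25 without 1 library. Between tissues in WT, the 0 cytosolic members became 1 with upper-quartile factors, 2 with totals, 1 without those 3 libraries, and 3 with DESeq2 or voom, and 0 to 2 without 1 library. The 0 mitochondrial members became 1 with upper-quartile factors, totals, a 10 CPM filter or DESeq2, and 2 with voom, and 0 to 1 without 1 library.

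The replicate numbers do not pair the libraries: 0 of 18 same-numbered pairs had deviations correlated above 0.1, and 5 of 12 libraries correlated best with their own number. With the replicate number as a block, 6 cytosolic and 11 mitochondrial members were called in spleen, 2 and 12 in lung, and 0 in the other comparisons. The share of all tested genes called with this block is not given here, so these counts do not show if the members differ from other genes.

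Depth limits the low members most: the retrocopies had a median of 310.5 counts over all libraries, against 33936 for the cytosolic and 3156 for the mitochondrial set.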

Other observations

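Rps2, a small subunit gene at the entrance of the messenger channel, differed widely within a group. It was at 81.6, 259 and 534 CPM in the lung WT libraries and at 79.3 to 102 CPM in all 6 spleen libraries, with 207, 131 and 149 CPM in lung ∆Foxp3. It shares most of its 38-base windows (793 of 1057) with other annotated genes. None of its comparisons was called. Rpl24, a large subunit gene, was counted at 29.3 CPM per kilobase over the 12 libraries, between Rpl39l at 3.04 and Rpl7l1 at 42.3 on the same scale, where the cytosolic median was 564, and shares 82.0% of its windows. Both genes were singled out after their values were seen.

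The mitochondrially encoded messenger mt-Nd3, which encodes a subunit of respiratory complex I, was at 0.334, 0.536 and 0.463 CPM in spleen WT and at 3.73 to 4.81 CPM in spleen ∆Foxp3, 5.17 to 7.77 CPM in lung WT and 3.57 to 9.83 CPM in lung ∆Foxp3. All 3 spleen WT libraries were below the other 9. The mt-Nd1 messenger of the same complex was at 4097 to 4781 CPM in spleen WT, and all mitochondrially encoded genes together held 1.40% to 1.61% of their counts, against 1.42% to 1.60% in spleen ∆Foxp3.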
